A study of Mus musculus with 27 samples.

Results

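Scavenger receptors of liver macrophages were followed at 5 genes, Marco, Cd163, Stab1, Stab2 and Msr1, through the acetylation of their regulatory windows and the factor sites around them. The members were the 53 windows, of 70300, that the deposited table assigned to these genes, 5 of the 16038 genes it names. To them were added the 216 factor sites, of 228956, that lay between the outermost windows of each gene or within 5 kb of them. The cells came from livers of C57BL/6J mice on a NASH diet or on a control diet. They were Kupffer cells, macrophages resident in the sinusoids, taken by a sort for high F4/80 and for Tim4. NASH is non-alcoholic steatohepatitis, a fatty and inflamed liver. The age and sex of the mice, and whether mice were pooled, were not stated in the labels. Chromatin immunoprecipitation with sequencing (ChIP-seq) measured H3K27ac, an acetylation of histone H3 found at active promoters and enhancers, in 2 libraries per diet. It also located LXR, a nuclear receptor for oxidised cholesterol, ATF3, a stress-induced transcription factor, and P300, an acetyltransferase recruited to active enhancers, each with 2 libraries and 1 deposited site list per diet. The windows were merged from lists of accessible sites, and the name of the NASH diet list among them gives a time on the diet in weeks. The headers of the NASH lists of LXR and P300 carry a different name, with another number and no unit. The time on the diet may therefore differ between the data types. No source used here states that time for each library.

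Scavenger receptors bind modified lipoproteins, polyanions, bacterial surfaces and spent plasma or matrix molecules and carry them into the cell for degradation. In the liver this clearance is shared between Kupffer cells and the endothelium of the sinusoids. Marco is a collagen-like receptor that lets macrophages bind bacteria and particles. Msr1, the class A scavenger receptor, takes up modified low-density lipoprotein. Cd163 takes up complexes of haemoglobin with haptoglobin. Stab1 and Stab2, the stabilins, take up matrix fragments, with hyaluronan a ligand of Stab2, and are known above all from sinusoidal endothelium, Stab1 also from macrophages.

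The promoters of Marco and Cd163 are shown because in the control lists a P300 site reached into each of them, while no NASH list held a site there. The 250 bases before the annotated start are given from RefSeq (GRCm38.p6, the same build as the files), read on the strand of the gene, at chr1:120505025-120505274 (minus strand) for Marco and chr6:124304401-124304650 (plus strand) for Cd163. Capitals mark the bases inside the control P300 site, 76 in Marco and 97 in Cd163.
Marco: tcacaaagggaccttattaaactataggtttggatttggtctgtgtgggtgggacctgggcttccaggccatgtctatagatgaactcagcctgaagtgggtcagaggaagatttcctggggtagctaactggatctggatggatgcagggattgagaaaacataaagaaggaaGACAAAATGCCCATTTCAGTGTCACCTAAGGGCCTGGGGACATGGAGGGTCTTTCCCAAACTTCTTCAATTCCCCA
Cd163: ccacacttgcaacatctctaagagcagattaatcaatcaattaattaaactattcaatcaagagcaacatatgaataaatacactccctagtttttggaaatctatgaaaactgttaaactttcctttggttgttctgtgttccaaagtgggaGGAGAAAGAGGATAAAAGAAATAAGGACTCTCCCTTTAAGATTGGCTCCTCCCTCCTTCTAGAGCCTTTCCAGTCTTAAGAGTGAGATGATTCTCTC
RefSeq promoters were matched for 4 of the 5 genes. Those of Stab1 and Stab2 held no site of any list. No accessible window overlapped any of the 4 promoters. None of the 4 contained, on either strand, the AP-1 motif TGANTCA (6.75% of 32851 RefSeq promoters of this length did), the cyclic AMP response element TGACGTCA (1.55%), the PU.1 motif GAGGAAGT (2.44%), the MAF motif TGCTGAC (3.81%) or the direct repeat bound by LXR (0.0639%). No motif overlaps were counted, as none of the motifs was found.

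H3K27ac is given as normalised tags, the tags of a window scaled by the authors to 10000000 per library. The NASH libraries held 18749728 and 19231109 tags and the control libraries 9468035 and 22615879, of which 7.91% to 9.60% fell in the windows. A count of 0 allows up to 3 tags, or 1.33 to 3.17 normalised tags by library, for counting error only. Of 12 Kupffer cell marker genes, 2 of them the members Marco and Cd163, all were in the table and none was at 0. Their summed H3K27ac was 1483 and 1320 in NASH against 2276 and 2187 in control. By the test given below, 6 of the 12 were lowered and none raised, with either scaling and without any single library. Besides the members these were Timd4, Clec4f, Adgre1 and Spic, the last 3 at 51.8% to 54.8% of control. The 6 not called, Vsig4, Cd5l, Csf1r, Nr1h3, C1qa and C1qb, stood at 56.4% to 94.5% of control. Among all tested genes 11.0% were lowered and 2.89% raised. Timd4, which encodes the Tim4 of the sort, was lowered to 21.3 and 26.0 in NASH, against 256.7 and 255.6 in control. The labels do not say that the 2 libraries of a diet came from separate animals, so the p-values reflect only how far these libraries spread, possibly for technical reasons. In such samples a smaller share of cells carrying the mark and less of it per cell cannot be told apart.

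H3K27ac over all windows of a gene fell with the NASH diet at Marco, Cd163, Stab1 and Stab2 and was not called changed at Msr1. At Marco it was 6.93 and 9.36 normalised tags in NASH against 108.8 and 61.5 in control. Both NASH libraries thus lay far below both control libraries, and the NASH mean was 9.57% of the control mean (8.15 ± 1.72 in NASH and 85.1 ± 33.5 in control, SD, n = 2 each). At Stab1 the sums were 42.7 and 34.8 in NASH against 116.2 and 103.5 in control, 35.3% of control by the means. At Cd163 they were 23.5 and 22.4 in NASH against 49.6 and 69.9 in control, or 38.3%. At Stab2, the weakest of the 5 in control, they were 17.1 and 13.5 in NASH against 49.6 and 26.97 in control, or 39.9%. At none of these 4 genes did the diets overlap. Msr1 carried 131.7 and 129.0 in NASH against 157.4 and 179.1 in control, or 77.5%, again without overlap but with a far smaller gap.

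**Figure D1:**
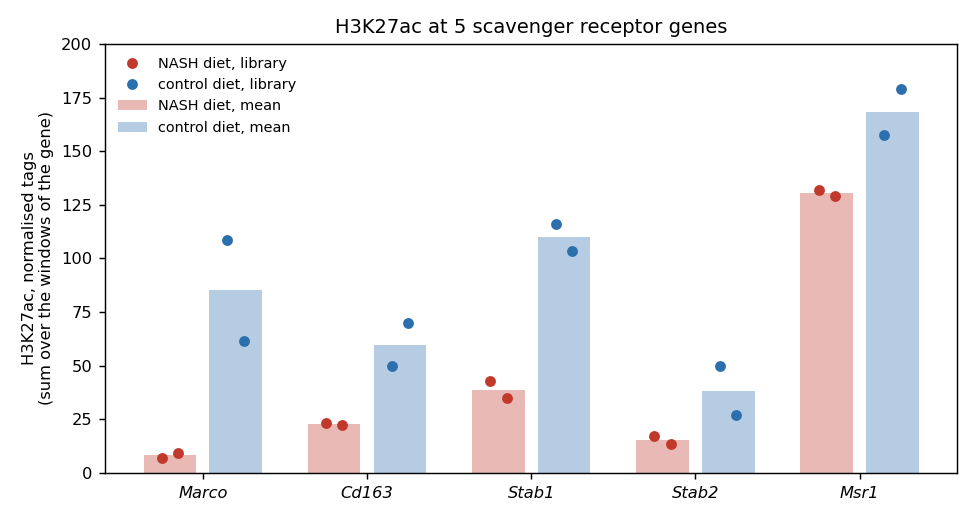
H3K27ac summed over the windows of each gene, in normalised tags on a linear axis; points are libraries, bars their means, NASH left and control right. Marco, Cd163, Stab1 and Stab2 sit between 6.93 and 42.7 in NASH and between 26.97 and 116.2 in control, while Msr1 is at 129.0 or above in all 4 libraries.

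Changes were tested with limma on log2(value + 1), a scale on which changes at low values come out too small, with Benjamini-Hochberg adjustment over 11593 genes. All genes together shifted by a median of −0.29, and log2 changes here are relative to that median, while the test itself is on the change before this subtraction. Marco changed by −2.91 (SE 0.35, limma adjusted p = 4.76e-06), Stab1 by −1.20 (SE 0.23, 2.27e-04), Cd163 by −1.04 (SE 0.29, 0.00447) and Stab2 by −0.93 (SE 0.36, 0.0296). Msr1 changed by −0.08 (SE 0.17, limma adjusted p = 0.167). So 4 of the 5 sums were called lowered and none raised, where 11.0% of all tested genes were lowered and 2.89% raised. With TMM scaling, which centres the genes near 0, the calls at the 5 genes were the same, beside 6.19% of all genes lowered and 7.25% raised. Both NASH libraries lay below both control libraries for 5 of 5 members and for 46.0% of all tested genes. The call at Stab2 rests on few tags, 32 and 26 in NASH and 47 and 61 in control. It was lost without NASH library 1 (limma adjusted p = 0.0567), NASH library 2 (0.215) or control library 1 (0.250). The calls at Marco, Cd163 and Stab1 were kept without any single library, with changes of −3.20 to −2.60, −1.39 to −0.69 and −1.26 to −1.14. In such a fit 1 diet has a lone library and no spread of its own, so a call kept there is weak support.

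Per kilobase of window, which allows levels to be compared between genes, Msr1 led in both diets and Marco and Stab2 changed places at the low end. In NASH it ran from Msr1 (47.5 ± 0.71 normalised tags per kb) through Stab1 (20.8 ± 2.97), Cd163 (18.7 ± 0.64) and Stab2 (7.20 ± 1.18) to Marco (2.47 ± 0.52). In control it ran from Msr1 (61.3 ± 5.58) through Stab1 (58.9 ± 4.82), Cd163 (48.9 ± 11.7) and Marco (25.8 ± 10.1) to Stab2 (18.0 ± 7.55, SD, n = 2 each). Within their spread, Stab1 and Cd163 did not separate in NASH, nor did Msr1, Stab1 and Cd163 in control, nor Marco and Stab2 in control. The Stab1 level came mostly from windows inside the neighbouring gene Nisch. These had a mean sum of 93.1 in control, against 16.8 in the windows inside Stab1. The place of Stab1 in this order therefore rests on the Nisch windows. Msr1 lay clear of all others in NASH.

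Of the 53 windows, 24 had tags enough to be tested and 8 of these were lowered (limma adjusted p below 0.05 with a log2 change of 1 or more in size), with none raised. Among all 35947 tested windows 4.59% were lowered and 2.00% raised. The lowered ones were 4 of 5 tested at Marco, 2 of 4 at Cd163, 1 of 6 at Stab1, 1 of 2 at Stab2 and 0 of 7 at Msr1. A window could be tested on the tags of 1 diet alone. The lowered windows at Marco and Stab2 had at most 2 tags in any NASH library, and those at Cd163 at most 7. They were therefore tested through their control tags, which largely set the direction in advance, so these counts are only described. Among the 24, both NASH libraries lay below both control libraries in 18, above them in 2, and the diets overlapped in 4, where 38.1% of all tested windows had NASH below. The 29 untested windows reached at most 4.80 in NASH and 10.6 in control. By the 2 accessibility lists behind the windows, 20 of the 53 were on the control list alone (8 at Marco, 5 at Stab1, 4 at Cd163, 2 at Msr1 and 1 at Stab2), as were 28.2% of all windows. Of the rest, 30 were on both lists and 3 on the NASH diet list alone. The count of 8 became 9 without NASH library 1, 5 without NASH library 2, 4 without control library 1 and 3 without control library 2.

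**Figure D2:**
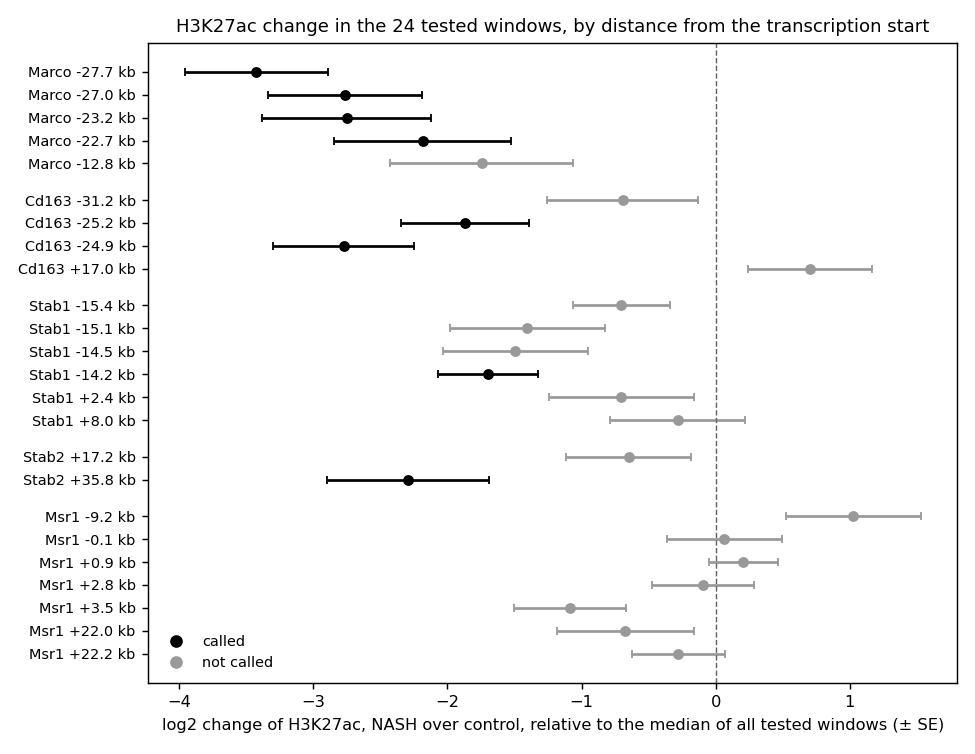
Change of H3K27ac in each tested window, as log2 of NASH over control relative to the median of all tested windows, with its SE; rows are ordered by distance from the transcription start within each gene. The 8 called windows, in black, lie between −3.42 and −1.70, and the windows of Msr1 lie on both sides of 0.

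In control most of the mark at Marco sat upstream of the gene, and 4 windows there were lowered in NASH. Distances are from the transcription start, negative upstream. The 6 windows beyond −19 kb summed to 2.67 and 3.12 in NASH against 68.7 and 46.4 in control, and held 67.6% of the Marco signal of the control libraries. The other 9 windows summed to 4.26 and 6.24 in NASH against 40.1 and 15.0 in control. In the window with the most signal, at −27.7 kb (chr1:120532595-120532831, intergenic), H3K27ac was 0.53 and 1.04 in NASH against 25.4 and 18.6 in control. In both NASH libraries this is under the level that a count of 0 allows. The change was −3.42 (SE 0.53, limma adjusted p = 6.28e-04) and was called without any single library.

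The 3 other lowered Marco windows lay close by, all between genes. At −26958 bp (chr1:120531825-120532140) the values were 1.07 and 0.52 in NASH against 16.9 and 10.6 in control (−2.76, SE 0.58, limma adjusted p = 0.00428). At −23.2 kb (chr1:120528106-120528306) they were 1.07 and 0.00 in NASH against 12.7 and 8.84 in control (−2.75, SE 0.63, 0.00782). At −22.7 kb (chr1:120527654-120527854) they were 0.00 and 1.04 in NASH against 7.39 and 6.19 in control (−2.18, SE 0.66, 0.0316). No NASH value in these 3 windows exceeded the level that a count of 0 allows, while every control value did. Each of the 3 calls was lost without control library 1 (limma adjusted p = 0.119, 0.175 and 0.322, in the order above). That at −26958 bp was also lost without control library 2 (0.0535), that at −23.2 kb without NASH library 2 (0.0767), and that at −22.7 kb without NASH library 1 (0.284) or NASH library 2 (0.206). Without control library 2 the windows at −23.2 and −22.7 kb did not pass the filter and had no test. The window nearest the start, 190 bp inside the 5′ UTR in exon 1 (chr1:120504734-120504934), was too low to be tested, at 0.00 and 0.52 in NASH against 2.11 and 3.54 in control.

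At Cd163 the lowered windows were a pair of close neighbours between genes. At −25.2 kb (chr6:124279381-124279581) H3K27ac was 3.73 and 3.12 in NASH against 13.7 and 24.3 in control (−1.87, SE 0.48, limma adjusted p = 0.0116). At −24.9 kb (chr6:124279693-124279893) it was 1.07 and 2.08 in NASH against 14.8 and 26.1 in control (−2.77, SE 0.52, 0.00236). The diets did not overlap in either window, and both were on the control accessibility list alone. Both calls were lost without control library 2 (limma adjusted p = 0.107 and 0.0650). The window with the most Cd163 signal in NASH was a different one, in an intron at 17.0 kb (chr6:124321582-124321782), which was on the NASH diet accessibility list alone. It had 11.7 and 8.32 in NASH against 7.39 and 6.63 in control, NASH above control in every pairing, with a change that was not called (0.70, SE 0.46, limma adjusted p = 0.601). The window nearest the start, at 4.5 kb in exon 4 (chr6:124309038-124309238), was untested, at 1.07 and 4.16 in NASH against 2.11 and 5.75 in control.

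Most of the signal assigned to Stab1 came from the neighbouring gene Nisch, which lies upstream of it. The 6 windows inside Nisch summed to 35.2 and 23.9 in NASH against 100.3 and 85.8 in control, and the 3 inside Stab1 to 7.47 and 10.9 in NASH against 15.8 and 17.7 in control. The diets did not overlap in either sum. The windows that the table assigned to Nisch itself summed to 51.7 and 42.1 in NASH against 73.9 and 51.7 in control and were not called changed (−0.11, SE 0.26, limma adjusted p = 0.323). The lowered Stab1 window lay at −14.2 kb (chr14:31182787-31182987), at the end of an annotated Nisch transcript. It had 6.40 and 7.80 in NASH against 27.5 and 33.6 in control (−1.70, SE 0.37, limma adjusted p = 0.00421), a call kept without any single library. The window at −15.4 kb (chr14:31183975-31184175) in the 3′ UTR of that transcript had 11.7 and 10.4 in NASH against 25.4 and 19.9 in control (−0.70, SE 0.36, limma adjusted p = 0.117). The window nearest the start, at 2.4 kb in intron 1 of Stab1 (chr14:31166166-31166369), had 3.20 and 3.12 in NASH against 6.34 and 7.96 in control (−0.70, SE 0.54, limma adjusted p = 0.296). Neither of these 2 was called, although the diets did not overlap in them.

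At Stab2 the lowered window was intronic. At 35.8 kb in intron 6 (chr10:86972051-86972269) H3K27ac was 0.53 and 1.04 in NASH against 11.6 and 7.52 in control (−2.29, SE 0.60, limma adjusted p = 0.0156). The call was lost without NASH library 1 (0.0891), NASH library 2 (0.0852) or control library 1 (0.264, all limma adjusted p). Without control library 2 the window did not pass the filter on low values and had no test, so no fit with a library left out kept the call. The window with the most signal, at 17.2 kb in intron 3 (chr10:86990647-86990856), had 6.93 and 5.20 in NASH against 15.8 and 9.29 in control and was not called (−0.65, SE 0.47, limma adjusted p = 0.254). The window nearest the start, at −8.6 kb (chr10:87016471-87016680), was near empty, at 0.00 and 1.04 in NASH against 1.06 and 1.33 in control.

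Msr1 was the only gene with tested windows within 1000 bp of its start, and there the diets did not separate. The window at 0.9 kb in intron 1 (chr8:39641707-39641926) carried the most signal of any of the 53, 45.3 and 43.2 in NASH against 43.3 and 48.6 in control (0.21, SE 0.25, limma adjusted p = 0.927). The window at −62 bp over the start (chr8:39642634-39642847) had 8.53 and 23.9 in NASH against 16.9 and 16.4 in control, the NASH libraries falling on both sides of control (0.07, SE 0.43, limma adjusted p = 0.827). That at 22.2 kb in intron 4 (chr8:39620366-39620566) had 17.6 and 14.0 in NASH against 20.1 and 26.97 in control (−0.28, SE 0.34, limma adjusted p = 0.365). Summed within 1000 bp of the start, Msr1 had 53.9 and 67.1 in NASH against 60.2 and 65.0 in control (0.23, SE 0.27, limma adjusted p = 0.921). Summed over its windows farther out it had 77.9 and 61.9 in NASH against 97.2 and 114.1 in control (−0.33, SE 0.19, limma adjusted p = 0.020). The distal sums of all 5 genes were thus called lowered, where 19.7% of all distal sums were. The Msr1 call was lost with TMM scaling (0.223), with edgeR (0.159) and DESeq2 (0.503) on recovered tags, without NASH library 2 (0.223) and without control library 2 (0.140). The Stab2 distal call was lost with DESeq2 (0.166) and without control library 1 (0.179). Marco had its 1 window near the start untested, and Cd163, Stab1 and Stab2 had no window there. H3K27ac near the start of Cd163, Stab1 and Stab2 was therefore not measured.

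Most factor sites of the control lists at Marco had no counterpart on the NASH lists. Sites of the same factor were paired across diets where they overlapped by at least 1 bp. At Marco the NASH lists held 2 LXR, 3 ATF3 and 1 P300 sites, against 12 LXR, 7 ATF3 and 6 P300 sites in control. Of the control sites at Marco, 10 of 12 LXR, 7 of 7 ATF3 and 6 of 6 P300 had no NASH site over them. Over the whole lists 17.8% of LXR, 17.4% of ATF3 and 10.1% of P300 control sites had none. At Msr1 the lists held 11 LXR, 9 ATF3 and 18 P300 sites in NASH against 8, 5 and 8 in control. Every control site at Msr1 had a NASH site over it. On the NASH lists alone were 3 of the 11 LXR, 4 of the 9 ATF3 and 10 of the 18 P300 sites, shares below those of the whole NASH lists, so the higher NASH counts are no result about Msr1. In all, 9 of 39 LXR, 15 of 29 ATF3 and 17 of 41 P300 sites of the NASH lists at the 5 genes had no control site, where the whole lists had 29.3%, 65.7% and 56.7%. The NASH lists are the longer ones for all 3 factors, with 51709 LXR, 38828 ATF3 and 52628 P300 sites against 44463, 16109 and 25219 in control.

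**Figure D3:**
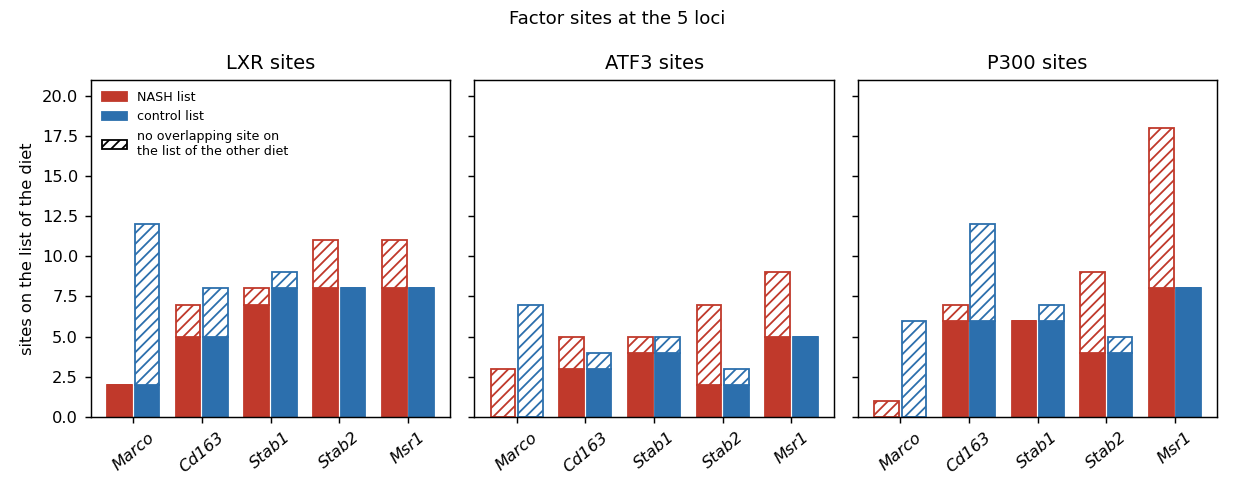
Number of LXR, ATF3 and P300 sites at each gene, NASH list left and control list right; the hatched part is the number without an overlapping site on the list of the other diet. At Marco 10 of 12 LXR, 7 of 7 ATF3 and 6 of 6 P300 control sites are hatched, and at Msr1 no control site is.

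The other genes lay between. Of all control sites, 17.8% of LXR, 17.4% of ATF3 and 10.1% of P300 had no NASH site over them. At Cd163 the NASH lists held 7 LXR, 5 ATF3 and 7 P300 sites against 8, 4 and 12 in control, and 3 LXR, 1 ATF3 and 6 P300 control sites had no NASH site. At Stab1 there were 8 LXR, 5 ATF3 and 6 P300 sites in NASH against 9, 5 and 7 in control, with 1 control site of each factor unpaired. At Stab2 there were 11 LXR, 7 ATF3 and 9 P300 sites in NASH against 8, 3 and 5 in control, with 0 LXR, 1 ATF3 and 1 P300 control sites unpaired. Neighbouring sites of different factors share a place, so these counts are not independent. When overlapping sites were joined into regions, 10 of 14 regions at Marco had control sites alone, 2 had NASH sites alone and 2 had both. At Cd163 these were 7, 3 and 6 of 16 regions, at Stab1 0, 1 and 8 of 9, at Stab2 2, 4 and 8 of 14, and at Msr1 0, 9 and 10 of 19. Shares over the regions of the whole lists are not given here, so these splits are not read as results about the genes.

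Windows that held all 3 factors in control and none in NASH were rare in the table, 0.779% of the 10265 windows with all 3 in control. Among the 53 windows, 19 held all 3 in control, as did 10265 of all 70300 windows. Of the 19, 5 held none in NASH. Marco had 4 of the 5, of its 5 windows with all 3 in control. They were the window at the start and those at −19.3 kb, −26958 bp and −27.7 kb. The other was the Cd163 window at 4.5 kb. In NASH all 3 factors met in 8 of 13 windows at Msr1, 5 of 10 at Stab2, 3 of 6 at Cd163, 3 of 9 at Stab1 and 1 of 15 at Marco. The share over all windows in NASH is not given here, so these counts are not read as results about the genes.

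**Figure D4:**
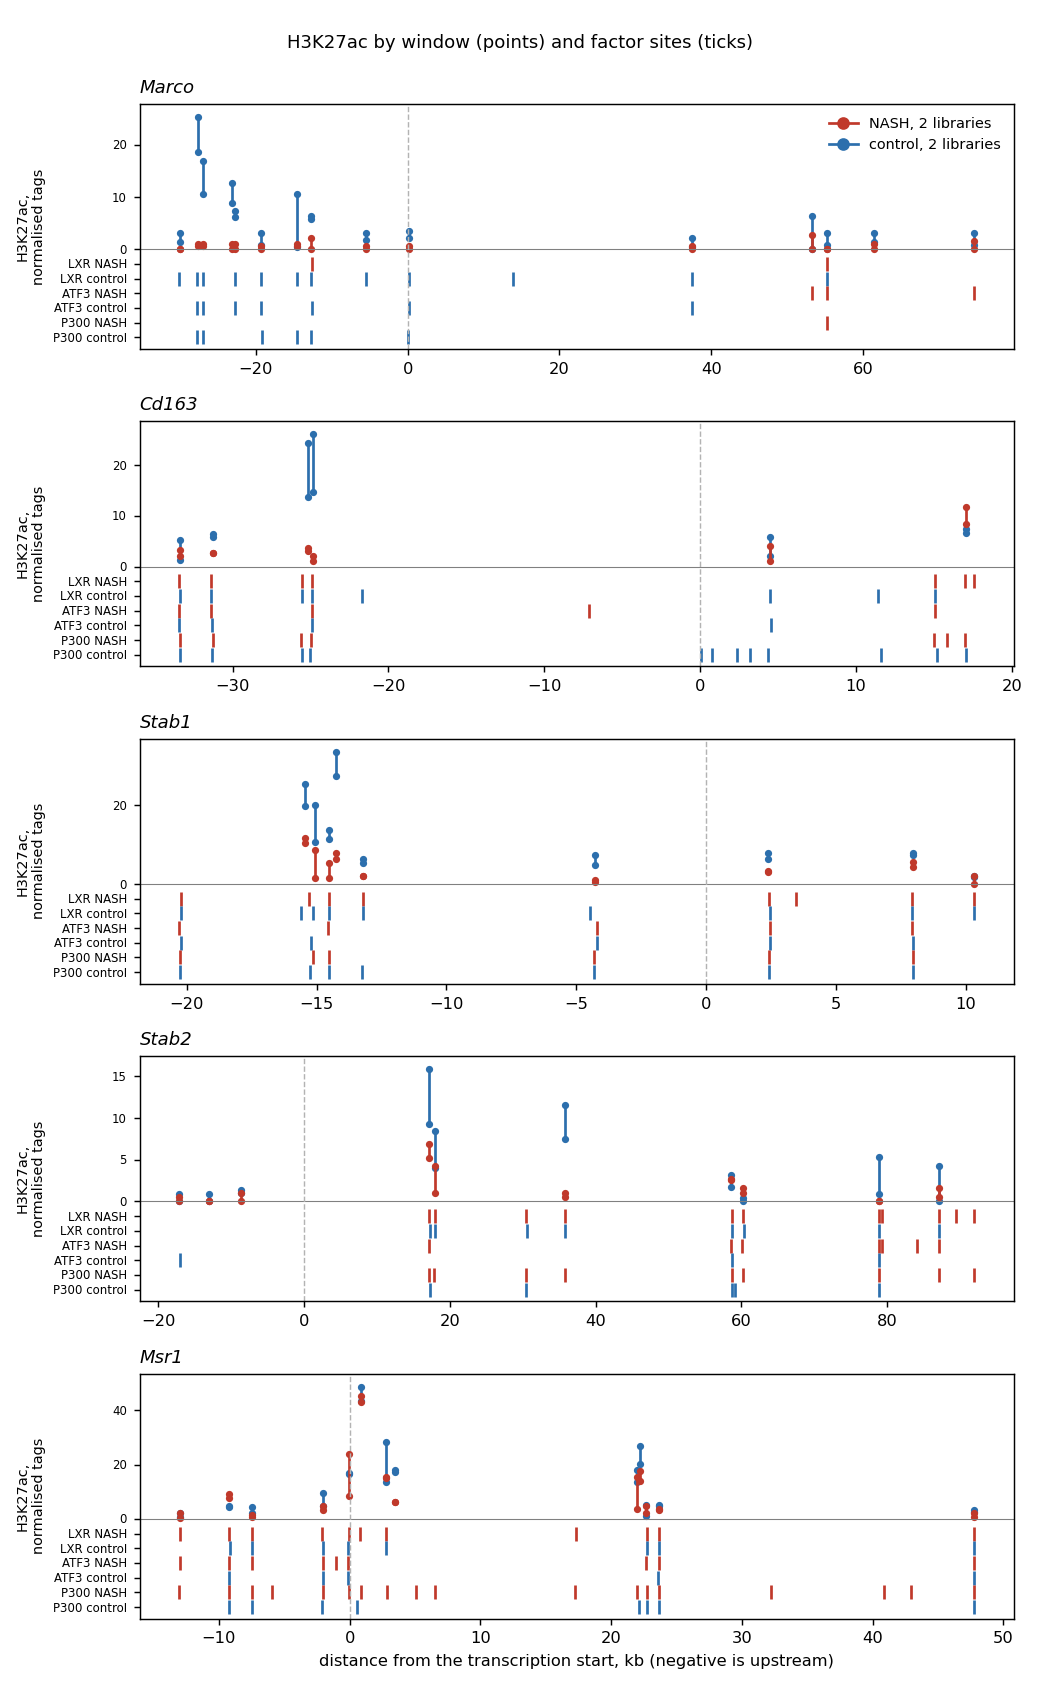
H3K27ac and factor sites at each gene by distance from the transcription start in kb; points joined by a line are the 2 libraries of a diet in 1 window (normalised tags, linear axis), and ticks below 0 mark the sites of each list at their centres. Beyond −19 kb of Marco the control ticks stand without NASH ticks and the NASH points lie near 0, while at Cd163 near −25 kb and at Stab2 at 35.8 kb NASH ticks remain where the NASH points are low.

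Lowered H3K27ac did not always go with sites missing from the NASH lists. Of the 8 lowered windows, the 4 at Marco held no site of any NASH list. The Cd163 window at −24.9 kb held sites of LXR, ATF3 and P300 on both diets' lists, and that at −25.2 kb a P300 site on both. The Stab2 window at 35.8 kb held LXR sites on both lists and a P300 site on the NASH list alone. The Stab1 window at −14.2 kb held no site in either diet, as did the Marco window at −23.2 kb. Sites lay close to both. The Stab1 window at −14.5 kb held LXR and P300 sites on both diets' lists and an ATF3 site in NASH. The Marco window at −22.7 kb held LXR and ATF3 sites in control.

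For LXR and P300 the authors gave each site a second score, which is used here only to place a site within its own list. The highest LXR site at Marco lay at −12.7 kb. It scored 40.0 on the NASH list, above 43.2% of that list, and 219 on the control list, above 96.7% of that list. It and a site at 55.2 kb, which scored 29.0 in NASH and 48.0 in control, were the 2 LXR sites at Marco on both lists. The highest P300 site at Marco was at 55.2 kb in NASH (38.0, above 35.6% of its list) and at −12.7 kb in control (42.0, above 77.1%). The ATF3 sites of the NASH list lay at 53.3, 55.3 and 74.6 kb, past the end of the gene, and those of the control list between −27.7 and 37.5 kb. ATF3 lists carry 1 score, the IDR score, whose highest value of 1000 is shared by many sites, so ATF3 sites were not ranked.

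At Cd163 the highest site of LXR and of P300 in both diets lay at about −31 kb. LXR scored 289 in NASH and 333 in control there, above 99.4% of the list in both diets. P300 scored 267 in NASH and 109 in control, above 99.8% and 99.3% of those lists. The window over that place was not called (−0.69, SE 0.56, limma adjusted p = 0.322), at 2.67 and 2.60 in NASH against 6.34 and 5.75 in control. The ATF3 control site without a NASH partner lay at 4.6 kb, the LXR ones at −21.7, 4.5 and 11.4 kb. Those of P300 all lay between 0.085 and 11.6 kb. On the NASH lists alone were LXR sites at 17.0 and 17.6 kb, ATF3 sites at −7.1 and 15.1 kb and a P300 site at 15.9 kb. The LXR site at 17.0 kb lay in the intronic window described above, where NASH values exceeded those of control.

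At Stab1 the highest LXR site lay inside the gene at 7.9 kb and scored 204 in NASH, above 97.8% of the list, and 328 in control, above 99.4%. The highest P300 site lay in Nisch, at −20.2 kb in NASH (222, above 99.5%) and −20.3 kb in control (69.0, above 96.0%). The 1-diet sites were an LXR site at 3.5 kb and an ATF3 site at −14.6 kb in NASH, and an LXR site at −4.5 kb, an ATF3 site at −15.2 kb and a P300 site at −13.3 kb in control. At Stab2 the highest LXR site lay at 17.2 kb in intron 3 and scored 292 in NASH, above 99.4%, and 222 in control, above 96.9%. P300 was highest at that place in NASH (124, above 93.6%) and at 78.8 kb in control (38.0, above 69.5%). LXR sites at 79.2, 89.5 and 92.0 kb were on the NASH list alone, an ATF3 site at −17.1 kb and a P300 site at 59.2 kb on the control lists alone. At Msr1 the highest LXR site lay over the promoter in both diets, and scored 170 in NASH, above 96.2%, and 158 in control, above 91.7%. A control site at 22.7 kb had the same score of 158. P300 was highest over the promoter in NASH (140, above 95.6%) and at 22.7 kb in control (55.0, above 90.5%). No P300 site of the control list overlapped that promoter site, and the nearest one lay at 0.57 kb and scored 28.0. LXR sites at −13.0, 0.8 and 17.3 kb were on the NASH list alone.

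Stab1 and Stab2 are also endothelial genes, so endothelial markers are given beside them. Of 17 marker genes of liver sinusoidal endothelium, 13 were in the table and 6 were tested. Of these 5 were lowered and none raised, 4 with TMM scaling, where 11.0% and 6.19% of all tested genes were lowered. The lowered ones were the 2 stabilins, Cdh5, Gpr182 and Dnase1l3. Without any single library in turn the count was 1 to 3, lowest without NASH library 2. Pecam1, the tested marker that was not called, had 45.9 and 40.0 in NASH against 62.3 and 40.2 in control. Without Stab1 and Stab2 the list summed to 118.4 and 94.6 in NASH against 179.5 and 162.3 in control. Of its 11 genes in the table, 6 stayed below 5 in every library (Lyve1, Clec4g, Oit3, Ptprb, Egfl7 and Robo4), and the vascular receptor gene Kdr had 5.34 and 6.24 in NASH against 4.22 and 3.98 in control. No endothelial marker in the table was at 0 in all 4 libraries. The part of endothelial cells in the values of the stabilins was not tested.

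Most other scavenger receptor genes were not called changed, like 9980 of all 11593 tested genes. Of all tested genes 11.0% were lowered and 2.89% raised, and with TMM scaling 6.19% and 7.25%. Of 34 names on the list, 30 were in the table and 24 were tested, 7 lowered, 1 raised and 16 not called, with a median change of −0.16 where the median of all genes is 0 by construction. Without the 5 members it was 3 lowered and 1 raised of 19 tested, with a median of 0.11. The 3 were Timd4, the phosphatidylserine receptor described above (−3.10, SE 0.22, limma adjusted p = 6.72e-09), the collectin receptor gene Colec12, at 1.60 and 1.56 in NASH against 19.0 and 13.7 in control (−2.45, SE 0.52, 0.00146), and Lamp1, a lysosomal membrane protein (−0.39, SE 0.17, 0.0107). The one raised was Cd36, which takes up fatty acids and oxidised lipoprotein, at 147.2 and 120.6 in NASH against 88.7 and 86.2 in control (0.89, SE 0.19, limma adjusted p = 0.0435). With TMM scaling Lamp1 was not called and Cd6, a scavenger receptor cysteine-rich protein best known from lymphocytes, was raised, for 6 lowered and 2 raised in all. The count lowered in the list ranged from 5 to 8 without a single library, and Cd36 was not called without any one of the 4. The uncalled genes with the most signal were Lrp1, a receptor for remnant lipoproteins (0.23, limma adjusted p = 0.733), Cd5l, a secreted Kupffer cell protein (0.20, 0.662), Scarb2, a lysosomal receptor (0.17, 0.576), and Cd14, the co-receptor for lipopolysaccharide (0.11, 0.418).

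The genes whose 4 sums were most like those of each member, by the distance between centred log2 values over the 4 libraries among genes of similar level, were Tmem117, Fam92a and Cplx2 for Marco (distance 0.47 to 0.58). They were Sdad1, Mir6932 and C6 for Cd163 (0.11 to 0.19), Ddx11, St3gal5 and Slc48a1 for Stab1 (0.039 to 0.14) and Wdr35, Dynll2 and Mllt3 for Stab2 (0.085 to 0.12). For Msr1 they were Kpna2, Ate1 and Ripk2 (0.029 to 0.045). Tmem117 had 4.27 and 6.24 in NASH against 49.7 and 33.6 in control, a smaller gap than that of Marco. Cplx2 had 5.86 and 4.68 in NASH against 97.2 and 51.7 in control, a larger one. Relative to the median, Tmem117 changed by −2.48, Fam92a by −2.89 and Cplx2 by −3.24, beside −2.91 for Marco.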

How the data were processed

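The series holds 27 samples, of which the 10 inputs and 1 peritoneal macrophage library were not analysed here. The submitters' processing notes name the builds mm10 and GRCm38 and the tools HOMER, Bowtie2 and DESeq2, without roles or versions. The deposited H3K27ac signal gives the tags in each window, which HOMER scaled to 10000000 per library, per the file headers, in windows merged from 2 ATAC-seq peak lists and assigned by HOMER to the nearest gene. Multiplying by the library totals in the headers gave whole tags within 0.02 for 100% of values. The 12 windows that carry no gene name entered no gene sum and held at most 0.132% of the tags in windows. The site lists joined both libraries of a diet and carry 1 IDR score per site. Those of LXR and P300 carry a second score. These scores were deposited by the authors and not recomputed. The single ATF3 score column is unnamed. It was taken for the IDR score because it stands where the other lists have theirs.

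From these values, windows were summed per gene, and separately within 1000 bp of the start and beyond. Windows and sums were kept by filterByExpr of edgeR 4.0.16 on the recovered tags, a filter that the tags of 1 diet alone can pass. They were tested with limma 3.58.1 (trend) in R 4.3.3 on log2(value + 1) over the whole table, 2 libraries per diet, with no pairing of libraries, and calls were made at an adjusted p under 0.05 (Benjamini-Hochberg), for windows also at an absolute log2 change of at least 1. The code was tested on simulated data. Alternatives were TMM scaling, pseudocounts of 0.5 and 5, no filter, edgeR and DESeq2 1.42.0 on recovered tags, a replicate block, each library left out (the lone library left in a diet is then assumed to vary like the others), and for sites an IDR score of 1000, flanks of 0 and 20 kb and another overlap rule.

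Named were all 5 members, their called windows, the window nearest the start and the 2 tested windows with the most signal, called genes of the scavenger list and its 4 uncalled genes with the most signal, the highest site per factor and diet, and sites of 1 diet where a gene had at most 3. A few further windows and sites were named after their values were seen. The members and lists were chosen with earlier results of these data known. Motifs were searched in RefSeq promoters in place of the windows planned, whose sequence was not analysed here. Marker lists of other cells were also summed. Monocyte markers summed to 513.1 and 515.3 in NASH against 671.8 and 552.7 in control (1 of 6 tested lowered, and with TMM scaling 1 lowered and 2 raised), neutrophil markers to 80.0 and 75.4 in NASH against 125.7 and 136.2 in control (2 of 2 lowered, 0 with TMM scaling) and dendritic cell markers to 120.5 and 124.3 in NASH against 171.1 and 155.2 in control (1 of 3 lowered, 0 with TMM scaling). Of B cell (1 tested), hepatocyte (3) and stellate cell markers (2) none was called, except that with TMM scaling 1 hepatocyte marker was raised. Of 2 T cell markers 1 was raised with either scaling. Of all tested genes 11.0% were lowered and 2.89% raised, and with TMM scaling 6.19% and 7.25%.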

Additional observations from a re-analysis of the deposited data

How the results depend on the processing

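Marco, Cd163 and Stab1 kept their direction and call with TMM scaling, both pseudocounts, edgeR, the replicate block and each library left out, with changes of −3.20 to −2.60, −1.39 to −0.69 and −1.26 to −1.14 when 1 library was left out. Stab2 kept its direction, at −1.25 to −0.61, and lost its call without 3 of the 4 libraries. With no filter on low values none of the 4 was called, at −2.93 (Marco), −1.06 (Cd163), −1.22 (Stab1) and −0.95 (Stab2), and the counts of called genes and windows fell to 0 in both directions, as did the 8 lowered member windows and the 5 lowered distal sums. The cause of this was not tested. At an unadjusted p under 0.05 limma then had 2575 genes lowered and 728 raised, 5271 windows lowered and 2335 raised, with 5 members and 16 member windows lowered and none raised. DESeq2 did not call Cd163 (−1.13, adjusted p = 0.0534) or Stab2 (−0.98, 0.246), and left 3 lowered member windows and 3 lowered distal sums. The Msr1 sum reversed to 0.12 without control library 2, and without NASH library 2 its window at −62 bp reversed to −0.69 and its promoter sum to −0.020, where without NASH library 1 they were 0.83 and 0.49. None of these was called, and Msr1 ranged from −0.27 to 0.12 with 1 library left out.

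Counts over the whole table moved more. Lowered genes (1278) became 718 with TMM, 764 with edgeR, 289 with DESeq2, 2263 with the replicate block and 431 to 1935 with 1 library left out. Raised genes (335) became 841 with TMM, 857 with edgeR and 139 to 385. Lowered windows (1651) became 902 with TMM, 206 with DESeq2, 2837 with the replicate block and 684 to 2211. Raised windows (720) became 1191 with TMM, 1351 with edgeR, 428 with DESeq2 and 176 to 841. Lowered member windows were 3 to 9 and lowered distal sums 4 to 5 with 1 library left out. Same-numbered libraries did not deviate together (correlation 0.0322 over genes), so the replicate block is not a pairing. It changed no call at the 5 gene sums.

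At an IDR score of 1000, unpaired sites went to 2 from 9 (LXR, NASH list), 8 from 15 (ATF3, NASH), 6 from 10 (ATF3, control) and 7 from 14 (P300, control). They went to 12 from 14 (LXR, control) and to 12 from 17 (P300, NASH). Shares over the whole lists at this score are not given here, so these counts are only described. The causes of these shifts were not tested. Depth limits the 29 untested windows and the Stab2 windows, where single tags carry weight.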
